A study of Mus musculus with 19 samples.

Results

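Mammary tissue of wild-type (WT) mice was compared with that of mice lacking the casein super-enhancer (ΔSE) at day 6 of pregnancy (p6). The members were all p6 libraries of both genotypes, 3 WT and 4 ΔSE, or 7 of the 19 libraries in the series. WT mice carried no edited allele. ΔSE mice were homozygous for a CRISPR/Cas9 deletion of the cluster of enhancer sites that lies next to Odam, between the calcium-sensitive casein genes and Csn3, and the labels call their genotype Enhancer-delS1-4. Both groups were C57BL/6 by the labels and C57BL/6N by the study's methods, were 8 to 12 weeks old and were untreated apart from pregnancy, and the deletion was present in every cell of the animal, not only in the mammary epithelium. Total RNA depleted of ribosomal RNA was sequenced, and the values are read counts per gene. The replicates were described by the study as independent biological samples.

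Caseins are the main proteins of milk. The α- and β-caseins (Csn1s1, Csn2, Csn1s2a and Csn1s2b) bind calcium, and κ-casein (Csn3) coats the casein micelle and keeps it in solution. Their genes sit side by side in 1 cluster and are transcribed in luminal alveolar cells, where prolactin activates STAT5, a transcription factor that binds the palindromic motif TTCNNNGAA. Early in pregnancy the alveoli are still forming, so that casein mRNA is far from its level at birth.

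The question was how much of the early casein mRNA, and of the rest of the transcriptome, differed without the enhancer. On chromosome 5 of the mouse genome build GRCm38 (mm10), GENCODE places Csn1s1 at chr5:87666208-87682578 (plus strand), Csn2 at chr5:87692624-87699630 (minus strand), Csn1s2a at chr5:87774567-87788797, Csn1s2b at chr5:87808082-87824426, Prr27 at chr5:87825686-87846387, Odam at chr5:87885029-87894174 and Csn3 at chr5:87925579-87932665 (the last 5 on the plus strand). The 250 bases before the RefSeq start were at hand for 3 of the 5 casein genes, and 2 of these windows, those of Csn1s1 and Csn2, held TTCNNNGAA. The window of Csn1s2a (chr5:87774200-87774449) ended before its GENCODE start, so the bases between were not searched. The study reported STAT5 binding upstream of Csn1s2a at sites that hold this motif. The motif reads alike on both strands, and 7.02% of all 32851 promoter windows of that length held it. A match is only a description of the letters. The sequences are shown because STAT5 is known to bind such motifs, with the match in capitals and each read 5′ to 3′ on the strand of its gene (RefSeq, GRCm38.p6). The whole window is given for Csn1s1 (chr5:87665958-87666207, plus strand), and 30 bases around the match for Csn2 (chr5:87699500-87699529, minus strand), where another annotated transcript of Csn2 starts further upstream. The match began 100 bases before the start of Csn1s1 and 93 bases before that of Csn2.
Csn1s1: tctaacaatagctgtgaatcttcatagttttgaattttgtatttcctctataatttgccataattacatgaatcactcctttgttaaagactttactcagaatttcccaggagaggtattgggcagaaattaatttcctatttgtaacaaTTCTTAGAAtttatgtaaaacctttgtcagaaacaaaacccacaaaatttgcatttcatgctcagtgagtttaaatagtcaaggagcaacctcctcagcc
Csn2: atcacgtagacTTCTTGGAAttgaagggac

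Depth was similar between genotypes. Reads assigned to genes ranged from 12335272 to 17163640 per library, of which 21.7% to 40.4% fell on the ribosomal RNA gene Rn45s and 6.96% to 18.2% on Lars2. Both were left out of library sizes, which then ranged from 6120088 to 10447527 reads. Levels are given as counts scaled to a common library size (CPM) with TMM factors, called normalized CPM. Levels of 1 gene were compared between libraries, not with other genes, since CPM is not per length.

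WT replicate 2 stood apart from the other WT libraries. Its summed casein level was 306.5 normalized CPM, against 8436 in WT replicate 1 and 8256 in WT replicate 3, and the 4 ΔSE libraries held 81.4 to 358.1. The epithelium itself was present in WT replicate 2. Its summed level over 18 luminal markers was 3664 normalized CPM, the highest of all libraries, against 3170 and 3435 in the other WT libraries and 1871 to 3262 in the ΔSE libraries. The main differences are therefore given with and without WT replicate 2. Leaving it out was decided because its casein counts were low, so a casein difference without it is no independent support for that difference. The same holds for other genes whose level in that library moved towards ΔSE together with its caseins. Among these were the milk protein and collagen lists, Cish and Elf5 below.

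Csn3 was the casein gene with the widest gap. Its level was 661.8, 93.1 and 847.9 normalized CPM in WT replicates 1 to 3, and 0.791, 0, 1.90 and 11.7 in ΔSE replicates 1 to 4. The lowest WT library lay above the highest ΔSE library, so the groups did not overlap, and the ΔSE mean was 0.674% of the WT mean. The log2 fold change was -7.16 ± 1.18 (s.e.), with an adjusted p of 0.196 by edgeR's quasi-likelihood test over 17244 genes. The exact two-sided permutation test gave 0.0571, the smallest p that 4 libraries against 3 allow. With that library left out, Csn3 fell by 7.63 ± 1.04 on the same scale (adjusted p 0.00948).

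The α- and β-caseins showed another pattern, in which WT replicate 2 lay with the ΔSE libraries. Csn1s1 measured 3295, 87.7 and 3371 normalized CPM in WT and 193.5, 32.8, 34.1 and 76.4 in ΔSE. Csn2 measured 2607, 61.8 and 2096 in WT and 100.5, 24.0, 27.3 and 65.6 in ΔSE. Csn1s2a measured 1862, 60.7 and 1932 in WT and 63.1, 24.4, 22.0 and 65.8 in ΔSE. In each of the 3 genes both other WT libraries lay far above every ΔSE library, while WT replicate 2 fell inside the ΔSE range. The ΔSE means were 3.74%, 3.42% and 3.41% of the WT means in that order, and none of the 3 passed (adjusted p 0.249 to 0.266). The exact two-sided permutation p was 0.114 for Csn1s1 and 0.171 for each of the other two. All 3 passed when WT replicate 2 was left out, with log2 fold changes of -5.29 ± 0.66 for Csn1s1, -5.42 ± 0.54 for Csn2 and -5.41 ± 0.46 for Csn1s2a (adjusted p 0.00749, 0.00431 and 0.00278 by edgeR).

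Csn1s2b was low in all libraries, with 8.90, 3.32 and 10.1 normalized CPM in WT and 0.226, 0.210, 0 and 19.9 in ΔSE. ΔSE replicate 4 thus held more Csn1s2b mRNA than any WT library, on 201 reads, whereas the other 3 ΔSE libraries held 0 to 2 reads each. The log2 fold change was -0.50 ± 1.31 (adjusted p 0.910), and -0.82 ± 1.45 without WT replicate 2 (adjusted p 0.792), so no difference was detected in either fit. ΔSE replicate 4 set this value. The ΔSE mean was 68.7% of the WT mean with it and 1.96% without it (log2 fold change -5.41, adjusted p 0.306). ΔSE replicate 4 was also the ΔSE library with the most Csn3 reads, 118 against 0 to 12, and without it the ΔSE mean of Csn3 was 0.168% of the WT mean. Csn1s2a and Csn1s2b are paralogs, and reads that they share may have been split or dropped in the counting.

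**Figure D1:**
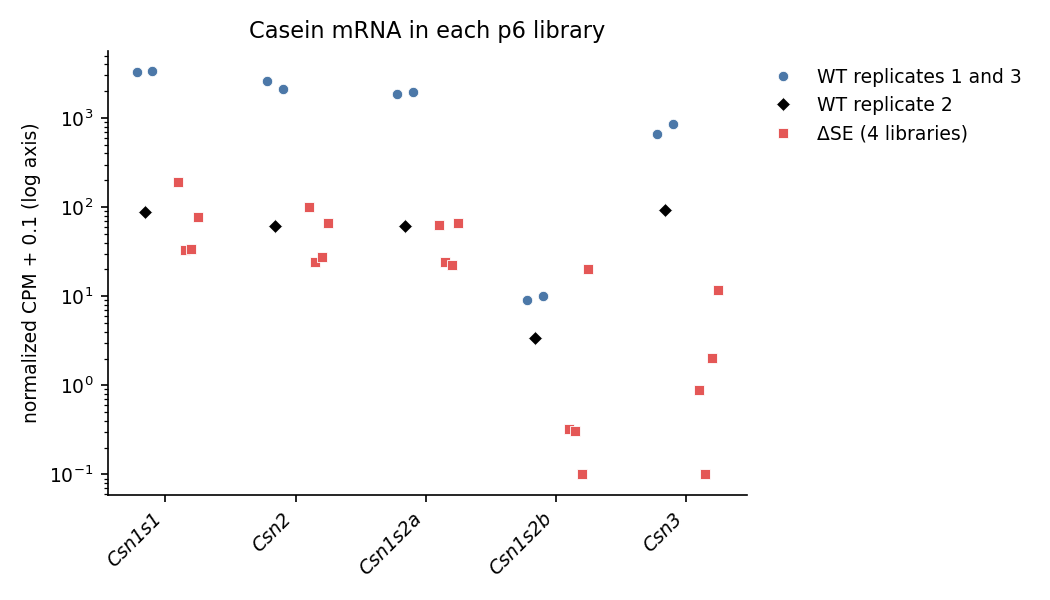
Casein mRNA levels in the 7 p6 libraries, as normalized CPM plus 0.1 on a log axis, with 1 point per library and no averaging. WT replicate 2 (black diamond) lies among the ΔSE libraries for Csn1s1, Csn2 and Csn1s2a but above all of them for Csn3, and ΔSE replicate 4 lies highest for Csn1s2b.

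The proportions of casein mRNAs within a library do not depend on scaling. Csn3 gave 0.254, 1.51 and 0.405 reads per Csn2 read in WT replicates 1 to 3. In ΔSE the ratio was 0.00842, 0.0725 and 0.179 in replicates 1, 3 and 4, and replicate 2 had 0 Csn3 reads beside 229 Csn2 reads. Every WT library, WT replicate 2 included, lay above every ΔSE library. The mean log2 ratio was -0.90 in WT and -5.50 in ΔSE, a difference of -4.60 (exact two-sided permutation p 0.0571, the smallest possible). The size of this difference depends on the 0.5 reads added to each count, which set the value of ΔSE replicate 2. It was -3.49 without ΔSE replicate 2, -5.61 without ΔSE replicate 4 and -3.86 without WT replicate 2. Csn3 reads per Csn1s2a read differed by -4.57 on the log2 scale, likewise without overlap, and by -5.50 to -3.37 with 1 library left out. Both ratios were chosen after the casein values had been seen. Csn1s2a reads per Csn1s2b read were 207, 18.0 and 191 in WT and 224, 93.0, 279 and 3.29 in ΔSE. ΔSE replicates 1 to 3 held 2, 2 and 0 reads of Csn1s2b, so that their ratios rest largely on the added 0.5 reads, and no difference can be read from them.

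**Figure D2:**
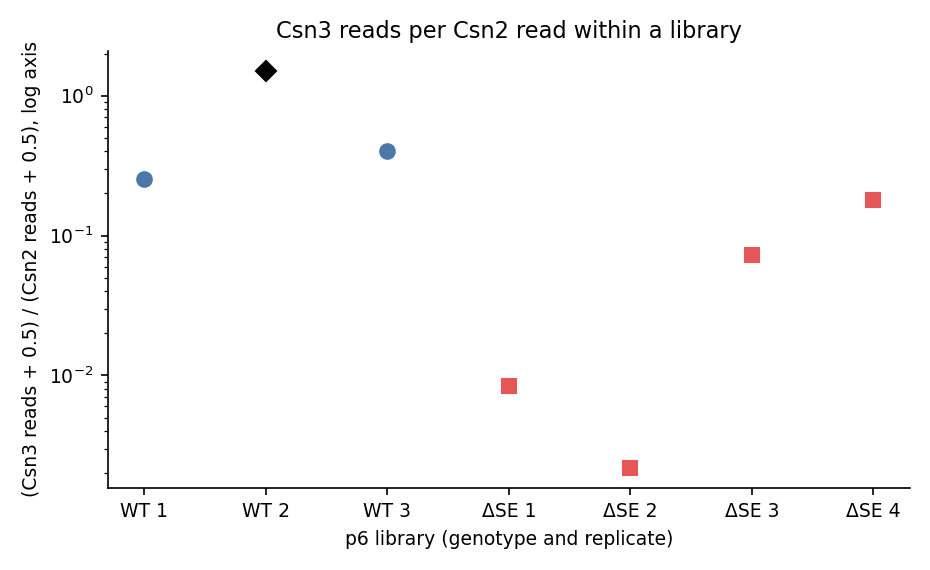
Csn3 reads per Csn2 read in each p6 library, with 0.5 reads added to both counts, on a log axis. The 3 WT libraries lie between 0.254 and 1.51 and the 4 ΔSE libraries between 0.00218 and 0.179, and WT replicate 2 is the highest of all.

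Casein reads were also set against the reads of 5 luminal keratin and adhesion genes (Krt8, Krt18, Krt19, Epcam and Cdh1). Csn3 gave 0.448, 0.0451 and 0.524 reads per marker read in WT and at most 0.0130 in ΔSE. That was a difference of -8.17 on the log2 scale without overlap (exact two-sided permutation p 0.0571). It was -6.72 without ΔSE replicate 2, whose 0 reads again leave only the added 0.5, -9.53 without ΔSE replicate 4 and -9.31 without WT replicate 2. For Csn1s1, Csn2, Csn1s2a and Csn1s2b the differences were -3.59, -3.56, -3.59 and -3.16, with exact two-sided permutation p of 0.171 to 0.229 and with overlapping groups. Without WT replicate 2 the first 3 were -5.48, -5.45 and -5.39, and that for Csn1s2b was -5.04 without ΔSE replicate 4. In bulk tissue, fewer cells of a type and less RNA per cell cannot be told apart.

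Most genes around the caseins had few or no reads. Prr27 held 1 read in WT replicate 3 and 0 in all others, and Odam, the neighbour of the deleted enhancer, held 0 reads in every library. At most 3 counts, or 0.287 to 0.477 CPM per library, are allowed by a count of 0, a limit that covers counting error only. Of 22 listed genes between and beside the caseins, 19 were among the genes counted in these libraries. Only 7 had enough reads to test (Sult1d1, Jchain, Utp3, Rufy3, Grsf1, Mob1b and Dck), and none passed with or without WT replicate 2. Grsf1, which encodes an RNA-binding protein, had 78.5, 86.8 and 87.9 normalized CPM in WT and 80.9 to 95.4 in ΔSE. Jchain, the joining chain of secreted antibodies, ranged from 6.22 to 807.5 in WT alone and from 35.7 to 126.8 in ΔSE.

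Across the transcriptome, no gene passed in the 7 libraries. The count was 0 higher and 0 lower in ΔSE of 17244 genes tested by edgeR's quasi-likelihood test (0% called), and the smallest adjusted p was 0.0779. At an unadjusted p under 0.05 there were 2159 genes (12.5%), 1102 higher (6.39%) and 1057 lower (6.13%). DESeq2, run on the same 7 libraries, called 196 genes higher and 150 lower. In simulated counts of 7 libraries, described below, 45 of 216 DESeq2 calls were false, against 11 of 160 by edgeR. Those shares need not hold for the real libraries, for the reason given there. The WT and ΔSE libraries did not overlap for 2019 genes (11.7%), 1058 higher (6.14%) and 961 lower (5.57%) in ΔSE.

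Leaving out WT replicate 2 changed the count. It then came to 689 of 17045 genes (4.04%), with 397 higher (2.33%) and 292 lower (1.71%), while leaving out any of the other 6 libraries gave 0 genes. Of the 689 genes, 685 had the same sign in the 7 libraries, 550 had an unadjusted p under 0.05 there and 309 did not overlap. For the other 380, WT replicate 2 lay within or beyond the range of the ΔSE libraries. Its place can be put on a log2 scale on which 0 is the mean of the ΔSE libraries and 1 the mean of WT replicates 1 and 3. Of the 689 genes, 453 lay below 0.25, 218 between 0.25 and 0.75 and 18 above 0.75, with a median of 0.155. The 689 genes were chosen without that library, so that the median describes it and tests nothing.

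**Figure D3:**
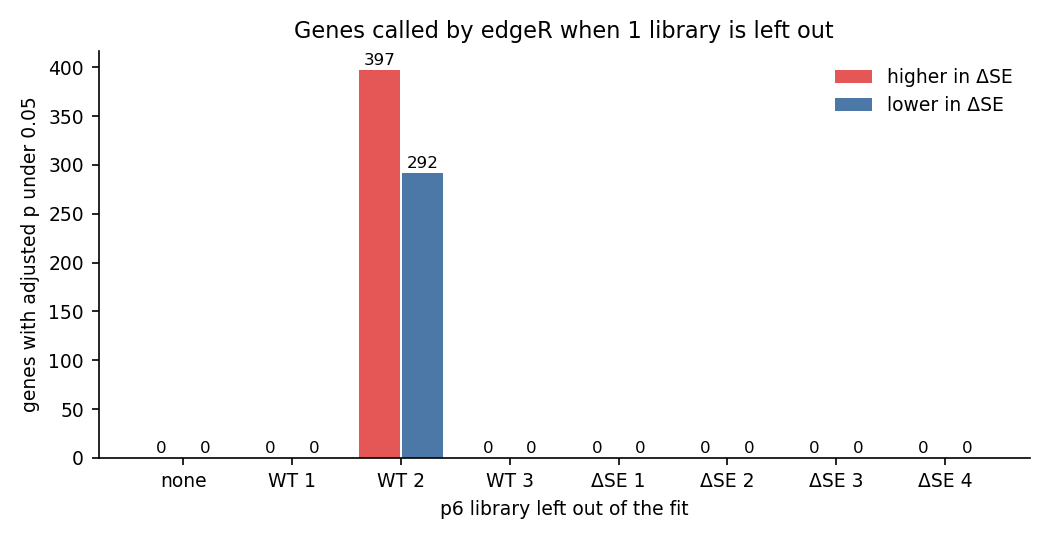
Number of genes with an adjusted p under 0.05 by edgeR in all 7 p6 libraries (none left out) and in each set of 6, as bars from 0, higher (red) and lower (blue) in ΔSE. The 397 higher and 292 lower genes appear only where WT replicate 2 is left out.

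The genes that separated the genotypes in all 7 libraries, WT replicate 2 included, included Mid1, a ubiquitin ligase that binds microtubules. Its level was 154.4, 63.8 and 63.5 normalized CPM in WT and 11.9, 16.3, 17.3 and 9.63 in ΔSE. The log2 fold change was -2.77 ± 0.34 (adjusted p 0.0893), and -2.97 ± 0.34 without WT replicate 2 (adjusted p 0.00640). On chromosome X (GENCODE, GRCm38), Mid1 spans chrX:169685199-170005736 on the plus strand and holds the predicted gene G530011O06Rik inside it, on the minus strand (chrX:169975043-169978917). G530011O06Rik measured 23.7, 9.95 and 14.6 in WT and 1.24, 1.37, 2.70 and 1.39 in ΔSE (log2 fold change -3.28 ± 0.38, adjusted p 0.0779, the lowest of all genes together with Gm14325). Whether the counting used the strand was not stated, so reads of the 2 genes cannot be told apart with certainty. Erdr1, which RefSeq places just beyond Mid1 (chrX:170010526-170018797), measured 20.2, 6.32 and 10.9 in WT and 1.81, 0.420, 4.60 and 0.496 in ΔSE (log2 fold change -2.84 ± 0.72, and -3.16 with an adjusted p of 0.0472 without WT replicate 2). Among genes higher in ΔSE, Trap1, a mitochondrial chaperone of chromosome 16, measured 71.2, 33.1 and 45.8 in WT and 125.0, 123.5, 107.0 and 136.8 in ΔSE. Its log2 fold change was 1.30 ± 0.24 (adjusted p 0.228, and 0.0243 without WT replicate 2). Gm14325, a predicted gene of chromosome 2, measured 15.2, 14.9 and 14.6 in WT and 33.4 to 42.8 in ΔSE (log2 fold change 1.29 ± 0.15, and 1.30 with an adjusted p of 0.00962 without WT replicate 2). G530011O06Rik, Gm14325, Trap1 and Erdr1 were picked after their values had been seen.

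The 10 named genes with the lowest p in each direction, none of which passed in 7 libraries, did not overlap between groups. That is a property the choice by p favours. Those higher in ΔSE were Mxra8, Ank2, Rgs5, Ednrb, Vstm4, Pamr1, Pcsk5, Lsp1, Cd209f and Cd209a. Mxra8, a cell adhesion protein of stromal cells, measured 23.5, 35.1 and 28.7 normalized CPM in WT and 61.2 to 84.2 in ΔSE (log2 fold change 1.35 ± 0.17, adjusted p 0.0893). Rgs5, a marker of pericytes, measured 50.1 to 69.7 in WT and 102.2 to 124.0 in ΔSE (0.97 ± 0.15, adjusted p 0.196). Cd209a, a lectin of dendritic cells, measured 1.91, 2.80 and 4.50 in WT and 9.03 to 19.2 in ΔSE (2.04 ± 0.37, adjusted p 0.228).

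Those lower in ΔSE were Mid1, Wwc1, Card14, Wnt5b, Csn3, Lcn2, Tmprss13, Npnt, Frrs1 and Spns2. Card14, an epithelial scaffold of NF-κB signalling, measured 34.2, 10.8 and 23.4 in WT and 4.41 to 5.76 in ΔSE (log2 fold change -2.16 ± 0.35, adjusted p 0.196). Lcn2, an iron-withholding acute phase protein, measured 243.0, 104.6 and 205.2 in WT and 55.2 to 74.1 in ΔSE (-1.48 ± 0.25, adjusted p 0.200). Wnt5b, a secreted Wnt ligand, measured 67.9 to 104.1 in WT and 39.2 to 50.5 in ΔSE (-1.06 ± 0.17, adjusted p 0.196). All 20 genes passed without WT replicate 2, on a selection by the same libraries.

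**Figure D4:**
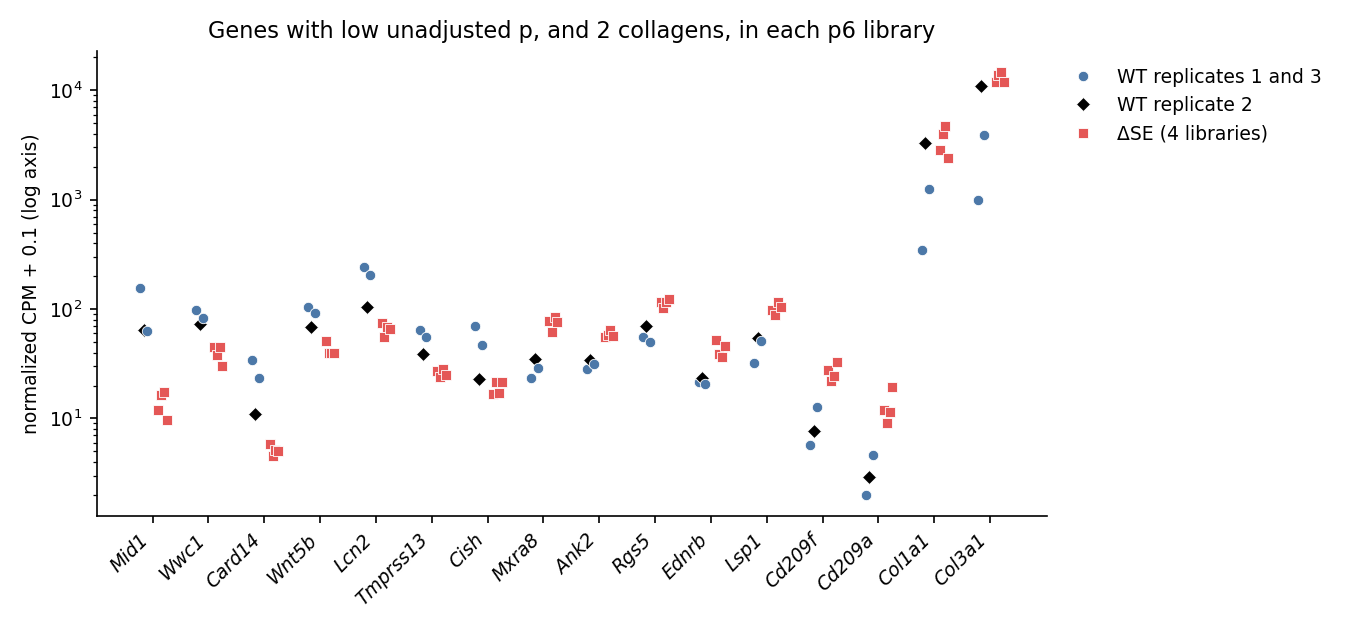
Normalized CPM plus 0.1, on a log axis, in each of the 7 p6 libraries for 7 genes lower in ΔSE, 7 genes higher in ΔSE and 2 collagens. WT replicate 2 lies near the other WT libraries for Mid1, Wwc1, Ank2 and Ednrb, between the groups for Card14 and Lcn2, and near the ΔSE libraries for Cish and both collagens.

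Most milk protein genes outside the cluster had lower levels in ΔSE than in WT replicates 1 and 3, and here too WT replicate 2 lay mostly with ΔSE. Of 22 listed genes, none passed in 7 libraries, 1 was lower without overlap (Spp1, against 5.57% of all genes), 1 was higher without overlap (Ctsl, against 6.14%), and the median log2 fold change was -1.09, against -0.00583 over all genes tested. In the fit without WT replicate 2, 13 of the 22 fell and none rose, against 1.71% of all genes that fell in that fit. The summed level of these genes was 10100, 3309 and 8688 normalized CPM in WT replicates 1 to 3. A library low in them was thus left out by its caseins, and the count of 13 is no independent support. Spp1, which encodes osteopontin, measured 191.6, 16.0 and 52.0 in WT and 4.12 to 8.81 in ΔSE (log2 fold change -3.70 ± 0.69, adjusted p 0.238, and 0.00593 without WT replicate 2). Cel, the bile salt-stimulated lipase of milk, measured 122.2, 4.15 and 130.3 in WT and 6.18 to 9.83 in ΔSE, so that WT replicate 2 held less than any ΔSE library. Wap, whey acidic protein, had overlapping groups in both fits and measured 17.3, 18.2 and 6.12 in WT and 1.26 to 23.8 in ΔSE (log2 fold change -0.72 ± 0.84, adjusted p 0.752).

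For lactose and milk fat, few genes passed even without WT replicate 2. Of 15 lactose genes only Lalba did, against 1.71% of all genes that fell in that fit. Lalba, which encodes α-lactalbumin, measured 38.5, 0.83 and 2.87 in WT and 0.159 to 1.59 in ΔSE (log2 fold change -4.17 with an adjusted p of 0.269 in 7 libraries, and -4.71 ± 0.92 with 0.0284 without WT replicate 2). Most of that gap came from WT replicate 1. Of 27 milk lipid genes 3 fell and 0 rose without WT replicate 2, against 1.71% and 2.33% of all genes. Among the 3 was Btn1a1, the butyrophilin of the milk fat globule, with 515.8, 24.1 and 356.3 in WT and 17.9 to 50.7 in ΔSE (-3.57 ± 0.39, adjusted p 0.00593, and -3.04 with 0.267 in 7 libraries). The list as a whole did not fall. In 7 libraries, 4 of the 27 were higher and 1 lower in ΔSE without overlap, against 6.14% and 5.57% of all genes. Their summed level was 18480 to 42490 normalized CPM in WT and 47090 to 71460 in ΔSE. The list medians in 7 libraries were 0.05 for lactose and 0.30 for lipid synthesis.

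Among genes of the STAT5 pathway and of factors that bind mammary enhancers, none of 25 passed in 7 libraries, and 6 were lower in ΔSE without overlap, against 5.57% of all genes. Cish, a feedback inhibitor and direct target of STAT5, measured 69.3, 22.8 and 47.0 in WT and 16.6, 21.2, 17.0 and 21.3 in ΔSE. The groups did not overlap, although WT replicate 2 lay only just above the ΔSE libraries (log2 fold change -1.28 ± 0.31, adjusted p 0.266). Without WT replicate 2, Cish (-1.59 ± 0.20, adjusted p 0.00749), Elf5 (-1.95 ± 0.24, adjusted p 0.00749) and Stat5a (-0.79 ± 0.17, adjusted p 0.0428) fell, or 3 of 25 against 1.71% of all genes. Elf5, which specifies alveolar cells, measured 251.9, 78 and 331.9 in WT and 60.4 to 107.1 in ΔSE. The other 5 without overlap, Stat5b, Nfib, Med1, Gata3 and Runx1, were lower in every ΔSE library than in any WT library but passed in neither fit. Med1, a mediator subunit, measured 138.7, 136.4 and 135.3 in WT and 105.8 to 121.4 in ΔSE (-0.27 ± 0.11, adjusted p 0.380). Nr3c1, the glucocorticoid receptor, measured 237.2 to 267.0 in WT and 263.4 to 332.8 in ΔSE (0.20 ± 0.14, adjusted p 0.594).

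The luminal markers describe the epithelial RNA in each library. Krt18 measured 334.3, 427.6 and 288.8 in WT and 412.2, 306.5, 300.7 and 215.7 in ΔSE (log2 fold change -0.18 ± 0.23, adjusted p 0.772, and 0.00 with 0.997 without WT replicate 2). Of 18 luminal markers, none passed in 7 libraries, 5 were lower in ΔSE without overlap (Cdh1, Cldn7, Esrp1, Spint1 and Spint2) against 5.57% of all genes, and the list median was -0.40. Elf5 and Esrp1 fell and Aldh1a3 rose when WT replicate 2 was left out, against 1.71% and 2.33% of all genes. ΔSE replicate 4 had the lowest luminal sum, 1871. Hormone-sensing luminal markers had a median of 0.00 with no call in either fit. Gapdh, a glycolytic enzyme often used as a control, ranged from 145.1 to 297.6 in WT and from 183.2 to 371.0 in ΔSE.

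Stromal genes showed the same split in the opposite direction. Of 22 fibroblast and collagen genes none passed in 7 libraries, yet all of their log2 fold changes were above 0, with a median of 1.08, and 15 were higher in ΔSE without overlap, against 6.14% of all genes. Without WT replicate 2, 13 of the 22 rose and none fell, against 2.33% of all genes that rose. Their summed level was 5641, 33580 and 15460 normalized CPM in WT and 36550 to 45600 in ΔSE, so that WT replicate 2 again lay next to ΔSE. Col3a1, a fibrillar collagen, measured 1003, 10880 and 3904 in WT and 11880 to 14720 in ΔSE (log2 fold change 1.32 ± 0.63, adjusted p 0.421, and 2.43 ± 0.52 with 0.0387 without WT replicate 2). Lox, which cross-links collagen, measured 34.8, 73.1 and 68.6 in WT and 124.8 to 132.2 in ΔSE (1.12 ± 0.23, adjusted p 0.254, and 1.32 with 0.0261 without WT replicate 2). The part of the stromal share in the casein and milk gene differences was not tested.

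For other cell types in the tissue, no marker passed in 7 libraries. Of 17 macrophage markers, 7 were higher in ΔSE without overlap, against 6.14% of all genes. Their summed level ranged from 573.6 to 1878 normalized CPM in WT and from 1275 to 1694 in ΔSE and so overlapped. Lyve1 and Cd209f rose and Mertk fell without WT replicate 2, against 2.33% and 1.71% of all genes. Lyve1 measured 4.45, 6.42 and 5.74 in WT and 9.99 to 16.8 in ΔSE (log2 fold change 1.39 ± 0.25, adjusted p 0.228). Of 11 mast cell markers, 5 were higher in ΔSE without overlap, against the same 6.14%. Cpa3, the mast cell carboxypeptidase, measured 6.36, 14.9 and 19.1 in WT and 32.6 to 60.4 in ΔSE (1.69 ± 0.35, adjusted p 0.254, and 0.0542 without WT replicate 2). The adipocyte list had a median of 0.30 and no call in either fit, with Fabp4, the fatty acid carrier of adipocytes, at 1020 to 1801 in WT and 1926 to 3165 in ΔSE. Of 17 endothelial genes, with a median of 0.22, 2 rose without WT replicate 2, against 2.33% of all genes. Of 15 myoepithelial and basal genes, with a median of 0.10, 3 did.

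Skeletal muscle RNA varied widely between libraries and the groups overlapped. The summed level of muscle markers was 12610, 13880 and 16860 normalized CPM in WT and 512.8, 26570, 1366 and 17780 in ΔSE. Acta1, skeletal actin, measured 512.3 to 875.0 in WT and 26.8 to 1515 in ΔSE, and no muscle marker passed in either fit. The nerve, skin, B cell and T cell lists had 16, 7, 15 and 19 genes tested. They held 1, 1, 2 and 0 called genes without WT replicate 2, against 4.04% of all genes. Cell cycle, ribosomal protein, oxidative phosphorylation, interferon-stimulated and immediate early genes had medians of 0.04, 0.04, 0.26, 0.08 and -0.08. Of these 5 lists only the last held a call without WT replicate 2, where 2 of 23 genes rose, against 2.33% of all genes. Among oxidative phosphorylation genes, 61 of 63 log2 fold changes were above 0, and none passed in either fit.

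Circadian and acute phase genes were the remaining lists with several calls. Of 19 clock genes tested, 5 fell (Per1, Per2, Per3, Tef and Hlf) and 1 rose (Arntl) without WT replicate 2, against 1.71% and 2.33% of all genes. Per1 measured 67.4, 56.4 and 83.9 in WT and 25.8 to 44.9 in ΔSE, without overlap (log2 fold change -0.98 ± 0.20, adjusted p 0.254, and -1.09 with 0.0259 without WT replicate 2). Per2 measured 70.1, 21.3 and 70.1 in WT and 16.0 to 23.5 in ΔSE, with WT replicate 2 inside the ΔSE range. The hour of collection was not given in the sources used here. Of 19 acute phase and involution genes tested, 6 fell in the same fit, against 1.71% of all genes, namely Lcn2, Chil1, Clu, Hp, Igfbp5 and Saa1. In 7 libraries, 6 of the 19 were lower and 2 (Orm1 and Cxcl1) higher in ΔSE without overlap, against 5.57% and 6.14%. Saa1 held 0 reads in all ΔSE libraries and 3.66, 0.622 and 2.11 normalized CPM in WT. In the B cell list Xbp1, a factor of secretory cells also in the unfolded protein list, measured 564.6, 204.1 and 566.6 in WT and 189.5 to 249.5 in ΔSE and fell without WT replicate 2 (-1.33 ± 0.17, adjusted p 0.00749).

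**Figure D5:**
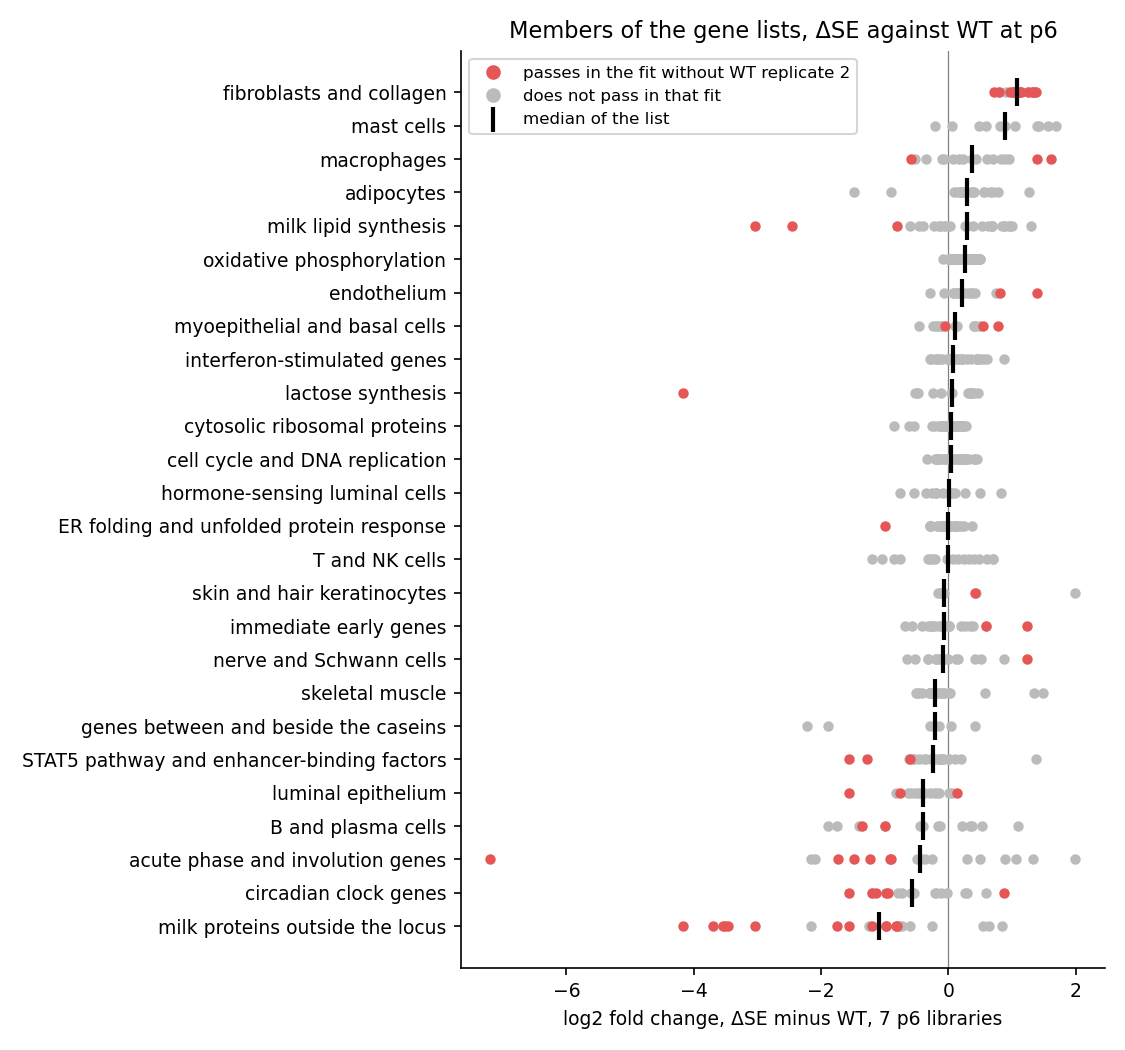
Log2 fold change of ΔSE against WT in the 7 p6 libraries for each tested member of 26 gene lists (points), with the median of each list (black bar). No member passed in this fit, and red points passed without WT replicate 2. The fibroblast and collagen list lies furthest to the right (median 1.08) and the milk protein list furthest to the left (-1.09) of those plotted. The 5 caseins, with a median of -4.87, are not plotted.

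The libraries of day 18 of pregnancy (p18), 3 WT and 4 ΔSE, share no sample with those of p6 and were fitted alone in the same way. There 848 of 16545 genes passed (5.13%), 245 higher (1.48%) and 603 lower (3.64%) in ΔSE. Of these, 65 were also called at p6 without WT replicate 2, which is 9.43% of the p6 genes and 7.67% of the p18 genes. In 42 of the 65 the direction was the same, and in 23 it was opposite. The shared genes with the lowest p at p18 were Csn3, Mid1, Trap1 and G530011O06Rik, each of which also separated all 7 libraries at p6.

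Csn3 measured 10110, 10140 and 7978 normalized CPM in WT at p18 and 230.9, 205.8, 83.7 and 79.5 in ΔSE (log2 fold change -5.98 ± 0.36, adjusted p 9.04e-07). Mid1 measured 35.1, 19.4 and 30.7 in WT and 5.04, 2.31, 4.32 and 5.75 in ΔSE (-2.68 ± 0.25, adjusted p 0.000215). Trap1 measured 28.0, 17.5 and 19 in WT and 105.0, 112.4, 57.7 and 110.9 in ΔSE (2.17 ± 0.22, adjusted p 0.000299). G530011O06Rik measured 11.3, 5.60 and 8.38 in WT and 0 to 0.432 in ΔSE (-5.03 ± 0.53, adjusted p 0.000322). Csn3 and Mid1 had been named by their p at p6, whereas Trap1 and G530011O06Rik were picked with the values of both stages in view.

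Whether the genotype effect itself differed between the stages was tested in 1 model of all 14 libraries. For 9 of 17842 genes (0.0504%) the effect was more positive at p6 and for 23 (0.129%) more negative. Lsp1, Cd209a and Cpa3 were among the first, with differences of 1.47 ± 0.24, 2.72 ± 0.52 and 2.54 ± 0.43 on the log2 scale (adjusted p 0.0404, 0.0498 and 0.0404). Card14 and Spns2 were among the second, with -2.02 ± 0.39 and -1.45 ± 0.26 (adjusted p 0.0498 and 0.0406). Icam1 had the lowest p, with a log2 fold change of -0.53 at p6 and 1.21 at p18 (difference -1.74 ± 0.25, adjusted p 0.0363). These counts rest on single libraries, and leaving out ΔSE replicate 2, 3 or 4 of p6 in turn gave 0 genes in both directions.

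No casein gene passed that test in all 14 libraries. For Csn1s1, Csn2 and Csn1s2a the log2 fold change was -1.13, -0.49 and -0.76 at p18 (adjusted p 0.0113, 0.258 and 0.0746 by edgeR). The effect at p6 was larger by -3.60 ± 1.13, -4.36 ± 1.08 and -4.10 ± 1.02 (adjusted p 0.153, 0.0902 and 0.0904). Without WT replicate 2 of p6 all 3 differences passed (adjusted p 0.00437, 0.000599 and 0.000477). For Csn3 the difference was -1.17 ± 1.13 (adjusted p 0.645). For Csn1s2b the log2 fold change at p18 was -3.95 ± 0.55 (adjusted p 0.00167 by edgeR). Its difference between stages was 3.50 ± 1.44 (adjusted p 0.246). That difference was -1.45 without ΔSE replicate 4 of p6, so that this library set its direction.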

How the data were processed

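Mammary tissue RNA of 3 WT and 4 ΔSE mice at p6 was analysed, with 7 p18 libraries for the comparison of stages. Per the study's methods, the authors depleted ribosomal RNA, prepared stranded libraries, sequenced paired 50 bp reads, trimmed them with Trimmomatic (0.36), aligned them with STAR (2.5.4a) to mm10 and counted reads per gene with HTSeq (0.9.1). The strand setting and annotation release were not given in the sources used here. The deposited values are raw counts for 24421 genes, 1 library per file. The 5 libraries with single-enhancer deletions were not used here.

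Rn45s and Lars2 were left out, genes with at least 10 reads in total were kept, and WT and ΔSE were compared by edgeR 4.0.16 in R 4.3.3 (TMM, quasi-likelihood F test, Benjamini-Hochberg adjusted p under 0.05) on the 7 libraries alone. Standard errors were derived from the F statistic. Single values were compared by exact two-sided permutation tests, of log2(normalized CPM + 0.1) or of log2 ratios with 0.5 reads added. Lists were described by counts and medians, without a set test. The alternatives were another filter, other scalings, DESeq2 1.42.0, a model of 4 groups, marker covariates, a factor of unwanted variation, a replicate block and each library left out. Named genes were the caseins and their neighbours, fixed enhancer factors, the 10 lowest p in each direction (mean of at least 50 normalized counts, predicted genes left out) and 2 to 4 members of each list. The genes, lists and tests were chosen with earlier results of these data known. Gene positions came from GENCODE M21 and RefSeq (GRCm38).

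The fit was tested on simulated counts of 17244 genes with 200 changed. The counts were drawn independently around a common mean profile. The spread of each gene came from all p6 libraries, also where WT replicate 2 was left out. No simulated library stood apart as WT replicate 2 did, so the recovered and false shares need not hold for the real libraries. With 4 against 3 libraries edgeR found 51% of 2-fold and 98% of 4-fold changes, with 11 false calls of 160. Without WT replicate 2 it found 20% and 92%, with 9 false of 121. DESeq2 found 73% and 98% with 4 against 3 libraries, with 45 false calls of 216. Without WT replicate 2 DESeq2 found 54% and 97%, with 47 false of 198. Its share of false calls in these simulated counts was thus well above that of edgeR.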

Additional observations from a re-analysis of the deposited data

Results flagged for a closer look

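Of 97 named genes, 13 had 1 ΔSE library far from the other 3 at p6 (Dixon's test for a group of 4). On normally spread values chance alone gives about 1 in 20 groups. That rate need not hold here, since normalized CPM need not be so spread and some genes were picked after their values were seen. Sult1d1 was bound to be flagged, with 4 reads in 1 ΔSE library and 0 in the other 3. ΔSE replicate 4 was the high one for Csn1s2b (19.9 normalized CPM against 0 to 0.226), Csn3 (11.7 against 0 to 1.90), Nr3c1 (333 against 263 to 275) and Fabp4 (3170 against 1930 to 2050), and the low one for Nfib (499 against 699 to 715). ΔSE replicate 2 was the high one for Tnnt1 (118 against 1.92 to 6.03), Myh7 (654 against 0.198 to 24.9), Per2 (23.5 against 16.0 to 16.8) and Sult1d1 (0.42 against 0), where Tnnt1 and Myh7 are genes of slow skeletal muscle. ΔSE replicate 1 was the high one for Wnt5b (50.5 against 39.2 to 39.6), Cel (9.83 against 6.18 to 6.75) and Calca (444 against 200 to 239), and ΔSE replicate 3 for G530011O06Rik (2.70 against 1.24 to 1.39).

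The genotype effect differed between p6 and p18, by edgeR's interaction term in the model of 14 libraries, for 9 named genes (adjusted p 0.0363 to 0.0498). No gene passed that term when ΔSE replicate 2, 3 or 4 of p6 was left out. The effect was more positive at p6 for Lsp1 (1.47 on the log2 scale), Cd209a (2.72) and Cpa3 (2.54), and more negative for Card14 (-2.02), Spns2 (-1.45), Stat3 (-0.955), Icam1 (-1.74), Nfkbia (-1.46) and Nfkb2 (-1.71). Icam1, Nfkbia and Nfkb2, all known targets of NF-κB, had log2 fold changes of -0.53, -0.76 and -0.66 at p6, where none passed in the 7 libraries, and of 1.21, 0.70 and 1.06 at p18, where all 3 passed. Without WT replicate 2 of p6, Nfkbia passed at p6 as well (-0.90, adjusted p 0.0264), and in the model of 4 groups it did so with an adjusted p of 0.0430. Stat3 and these 3 genes were picked after their values had been seen.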

How the results depend on the processing

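At p6 no gene passed in the 7 libraries (0 higher and 0 lower), and leaving out 1 library gave 0 to 397 higher and 0 to 292 lower, the upper values without WT replicate 2 and 0 without any other. DESeq2 called 196 and 150, the model of 4 groups 69 and 109, no filter 1 and 2, the replicate block 0 and 1 and the luminal covariate 0 and 1. The remaining settings gave 0 and 0, with 207 (a minimum log2 fold change of 1) to 2359 genes at an unadjusted p under 0.05. Library totals alone moved the median of all genes to -0.0521. The replicate block was tried because both genotypes share replicate numbers, but nothing pairs the animals, and same-numbered libraries did not deviate together (correlations of -0.0652, -0.0149 and -0.184). No WT library shares the number of ΔSE replicate 4, so the block took that library out of the genotype difference. It had the most Csn3 reads of the ΔSE libraries. The block added 1 call, Csn3 (-9.37, adjusted p 0.00117). The luminal covariate added the same gene (-10.01, adjusted p 0.0327). Of the 689, 346 and 178 genes called without WT replicate 2, by DESeq2 and by 4 groups, 140 were shared (56 higher, 84 lower), a count made after seeing the data.

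Csn1s1, Csn2, Csn1s2a and Csn3 kept their direction in every setting. They passed with DESeq2 (-4.74, -4.87, -4.87 and -7.21), with 4 groups (-4.74, -4.87, -4.87 and -7.15) and without WT replicate 2 (-5.29, -5.42, -5.41 and -7.63). The model of 4 groups estimated the spread from the p18 libraries as well, where the s.e. of Csn1s1 was 0.23, against 1.07 at p6. In every setting that keeps WT replicate 2, that library lies inside the ΔSE range for Csn1s1, Csn2 and Csn1s2a. Leaving out each library gave log2 fold changes from -5.53 to -4.31 for Csn1s1, -5.42 to -4.30 for Csn2, -5.41 to -4.43 for Csn1s2a and -9.36 to -6.62 for Csn3, and levels from 2.16% to 5.05%, 2.34% to 5.07%, 2.34% to 4.64% and 0.168% to 0.975% of WT. Csn1s2b, at -0.50, was at 0.12 with a factor of unwanted variation (adjusted p 0.992), -5.29 with the replicate block (0.468), -5.40 with the luminal covariate (0.390) and -5.41 without ΔSE replicate 4 (0.306). The replicate block in effect leaves out ΔSE replicate 4 too, so these 2 settings are not separate evidence. The ratio of Csn1s2a to Csn1s2b, -0.44, reversed to 0.17, 0.11 and 1.01 without WT replicate 1, WT replicate 3 and ΔSE replicate 4, and was -1.59 without WT replicate 2.

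For the difference between stages (9 more positive, 23 more negative at p6), DESeq2 gave 301 and 282, library totals 16 and 232 and the replicate block 2 and 15. Leaving out 1 of the 14 libraries gave 0 to 571 and 0 to 475, the upper values without WT replicate 2 of p6. The differences for Csn1s1, Csn2 and Csn1s2a passed with DESeq2 (-3.60, -4.36 and -4.10) and without WT replicate 2 (-4.17, -4.93 and -4.67), and for Csn2 and Csn1s2a also with library totals (-4.59 and -4.34). Over the libraries left out they ranged from -4.42 to -3.20, -4.93 to -3.81 and -4.67 to -3.69. That for Csn1s2b ranged from -1.45, without ΔSE replicate 4 of p6, to 4.23. The cause of these changes was not tested. Depth limits Prr27, Odam and Csn1s2b, which held few or no reads.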

Other observations

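The following genes were among those with the largest positive fold changes without WT replicate 2 and were chosen after that fit. C1qtnf3, a secreted factor of connective tissue, measured 0.477, 3.32 and 0.479 normalized CPM in WT and 7.30 to 11.2 in ΔSE (log2 fold change 4.25, adjusted p 0.00431 without WT replicate 2). Dio2, which activates thyroid hormone, measured 0.636, 15.1 and 4.02 in WT and 28.0 to 36.9 in ΔSE. In some genes WT replicate 2 lay beyond the ΔSE libraries. Igfbp3, which binds insulin-like growth factors, measured 13, 259.9 and 20.7 in WT and 110.4 to 149.4 in ΔSE, and Krt15, a basal keratin, 2.86, 130.1 and 12.3 in WT and 31.6 to 90.8 in ΔSE. For both, the log2 fold change in 7 libraries was 0.41 (adjusted p 0.872 and 0.887), and without WT replicate 2 it was 2.95 and 3.05 (adjusted p 0.00278 and 0.0261).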
